A study of Mus musculus with 10 samples.

Results

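The genes of the circadian clock were described in epididymal fat of mice fed a high fat diet that lack a component of the inflammasome, and of wild-type mice fed the same diet. The members were set by name as Arntl, Clock, Npas2, Per1, Per2, Per3, Nr1d1, Nr1d2, Dbp and Tef, and a gene was kept where the array annotation paired a probe set with it alone. This held for 9 of the 10 names, out of 17097 genes measured in all, and 21 probe sets were paired with the 9 genes. No probe set was paired with Nr1d1 in the annotation used, so Nr1d1 is not analysed here. Where a gene had several probe sets, the one with the brightest average across the 10 arrays stood for it.

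The arrays came from 3 ASC-/- mice, which lack the adaptor ASC (gene Pycard), from 3 Casp1-/- mice, which lack the protease caspase-1, and from 4 wild-type (WT) mice, with 1 array per mouse. All were males of C57/Bl6 background that ate food with 45% of its energy as fat for 16 weeks, from an age of 8 to 12 weeks on. The labels do not say whether the WT mice were littermates of the null mice or how the null alleles were made, and they give no time of killing, light cycle or feeding state. The signals below are the deposited log2 values (RMA), in which a step of 1 doubles the signal. Control probe sets for nonspecific binding reached up to 5.01 on a single array, a value called the highest background control below.

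The clock of mammalian cells is a feedback loop of transcription. The proteins ARNTL (also called BMAL1) and CLOCK, or its relative NPAS2, bind E-box sequences and switch on the Per and Cry genes, Nr1d1 and Nr1d2, and the output genes Dbp and Tef. The PER and CRY proteins then block the activators, while the NR1D receptors repress Arntl and Npas2 through ROR elements. In peripheral mouse tissues, fat included, Arntl and Npas2 therefore peak near the end of the night, while Nr1d1, Dbp, Tef and Per3 peak during the day and Per1 and Per2 near dusk.

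Promoters of the phase opposed genes are shown to let a reader see the elements through which the loop is known to act. They run from 250 bases before to 50 bases after a RefSeq start site on GRCm38.p6, in the direction of transcription, and the capitals mark a match on either strand to the E-box CACGTG, the D-box TTANGTAA or the ROR element ANTNGGTCA. The Arntl window lies at chr7:113207261-113207560 on the plus strand, the Per3 window at chr4:151044616-151044915 on the minus strand, the Tef window at chr15:81802423-81802722 on the plus strand and the Dbp window at chr7:45704997-45705296 on the plus strand. Tef was added to the set after its values had been seen.
Arntl: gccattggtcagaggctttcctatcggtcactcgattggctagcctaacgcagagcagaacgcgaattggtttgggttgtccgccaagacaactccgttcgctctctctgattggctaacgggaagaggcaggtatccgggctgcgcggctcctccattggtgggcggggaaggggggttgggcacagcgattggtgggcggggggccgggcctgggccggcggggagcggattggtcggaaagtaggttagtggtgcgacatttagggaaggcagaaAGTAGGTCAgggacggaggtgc
Per3: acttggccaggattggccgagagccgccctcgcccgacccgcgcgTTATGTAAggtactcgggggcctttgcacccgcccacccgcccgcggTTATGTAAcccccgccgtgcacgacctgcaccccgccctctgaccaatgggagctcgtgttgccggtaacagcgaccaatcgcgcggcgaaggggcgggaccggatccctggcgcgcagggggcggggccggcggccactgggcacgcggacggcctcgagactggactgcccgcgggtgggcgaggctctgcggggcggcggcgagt
Tef: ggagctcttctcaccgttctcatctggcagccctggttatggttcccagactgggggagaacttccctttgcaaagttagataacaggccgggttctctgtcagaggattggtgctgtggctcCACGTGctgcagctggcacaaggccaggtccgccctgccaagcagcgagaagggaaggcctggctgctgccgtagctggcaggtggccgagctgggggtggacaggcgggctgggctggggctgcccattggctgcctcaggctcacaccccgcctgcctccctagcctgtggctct
Dbp: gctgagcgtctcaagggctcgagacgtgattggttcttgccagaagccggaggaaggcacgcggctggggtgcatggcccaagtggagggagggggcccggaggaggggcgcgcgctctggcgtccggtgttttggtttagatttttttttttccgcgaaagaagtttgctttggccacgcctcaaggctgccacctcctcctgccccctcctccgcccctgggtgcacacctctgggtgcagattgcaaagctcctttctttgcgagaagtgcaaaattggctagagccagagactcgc

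The Arntl window shown held a ROR element that begins at position 29, counted from 1 at the start site. Another Arntl window, at chr7:113207215-113207514, held no match. The Per3 window held a D-box at each of positions -205 and -158. The Tef window held an E-box at position -127. The Dbp window held no match, which says only that these letters are not in it. Over the 32851 promoter windows of the same length, 7.15% held the E-box, 2.32% the D-box and 2.24% the ROR element. RefSeq gave 13 windows for 8 of the 9 genes, and Per1 was the other gene with an E-box among them.

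The labels held up against the targeted genes, with Pycard at 3.20 to 3.71 on the ASC-/- arrays against 9.10 to 10.57 on the WT arrays, and Casp1 at 4.69 to 4.98 on the Casp1-/- arrays against 8.71 to 9.99 on the WT arrays. Of 9 adipocyte markers measured, 8 had means above the highest background control, while all 5 epididymis markers measured had means over the 10 arrays below it. The mean of these 5 was 4.43 on Casp1-/- replicate 2, against 3.36 to 3.52 on the ASC-/- arrays, 3.46 and 3.80 on the other Casp1-/- arrays and 3.37 to 3.97 on the WT arrays, and one of them, Adam7, averaged 5.65 in Casp1-/-, against 4.45 in WT. The mean of 14 macrophage markers was 10.01 to 10.58 on the ASC-/- arrays, 7.97 to 8.52 on the Casp1-/- arrays and 9.25 to 10.86 on the WT arrays. In bulk RNA of a tissue made of many cell types, fewer cells of a type and less RNA per cell cannot be told apart. Bacterial spike-in RNA added before labelling divided the arrays into a high set (the Casp1-/- arrays at 7.51 to 8.07 and WT replicate 1 at 7.80) and a low set (the ASC-/- arrays at 6.21 to 6.30 and WT replicates 2 to 4 at 5.76 to 6.50). The 3' minus 5' signal of actin, a sign of RNA length, was 0.54 to 0.67 in ASC-/-, 0.82 to 0.98 in Casp1-/- and 0.46 to 1.05 in WT. Neither null genotype lay in the same spike-in set as the other, so ASC-/- and Casp1-/- could not be compared within a set. Values within or adjusted for the spike-in sets, and with the actin signal as a covariate, are given below where they change a result. The high set holds a single WT array, so differences within it carry no WT spread and are given with no test. With the set as a block, Casp1-/- minus WT equals the difference from WT replicate 1 within the high set. The ASC-/- minus Casp1-/- difference with that block also rests on WT replicate 1. Block values that involve Casp1-/- are therefore not separate from those within the sets. The part of the macrophage signal in the clock gene values was not tested.

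The first comparison asked whether the clock genes of fat without ASC differed from those of WT fat. Of the 9 genes 0 passed the threshold, which was a Benjamini-Hochberg adjusted p under 0.05 in limma over all genes, where 0.0351% of all genes passed (0.0175% higher and 0.0175% lower). An unadjusted p under 0.05 was reached by 3 of the 9 genes (Npas2, Per1 and Tef) and by 2% of all genes. The arrays of ASC-/- and WT did not overlap for 2 of the 9 genes, Arntl and Npas2, both higher in ASC-/-, and for 3.19% of all genes (1.33% higher and 1.86% lower). The median difference of the 9 genes was -0.12 in log2, and that of all genes 0.005.

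The second comparison, of Casp1-/- with WT fat, called 2 of the 9 genes, where 8.17% of all genes were called (4.31% higher and 3.86% lower). Npas2 fell and Tef rose in Casp1-/- fat, and these were also the genes whose arrays did not overlap, as held for 24.7% of all genes (15.1% higher and 9.6% lower). An unadjusted p under 0.05 was reached by 3 of the 9 genes and by 27.6% of all genes, and the median difference was 0.30 for the 9 genes and 0.041 for all genes. The third comparison set the null genotypes against each other and called 3 of the 9 genes, where 7.39% of all genes were called (3.85% higher and 3.54% lower). Arntl and Npas2 were higher in ASC-/- than in Casp1-/- fat and Tef was lower. In that comparison the arrays did not overlap for 8 of the 9 genes, 3 higher and 5 lower in ASC-/-, and for 40.4% of all genes (17.3% higher and 23.1% lower). An unadjusted p under 0.05 was reached by 5 of the 9 genes and by 26% of all genes, and the median difference was -0.43 for the 9 genes and -0.042 for all genes. The comparisons share arrays, so their results are not independent of each other.

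**Figure D1:**
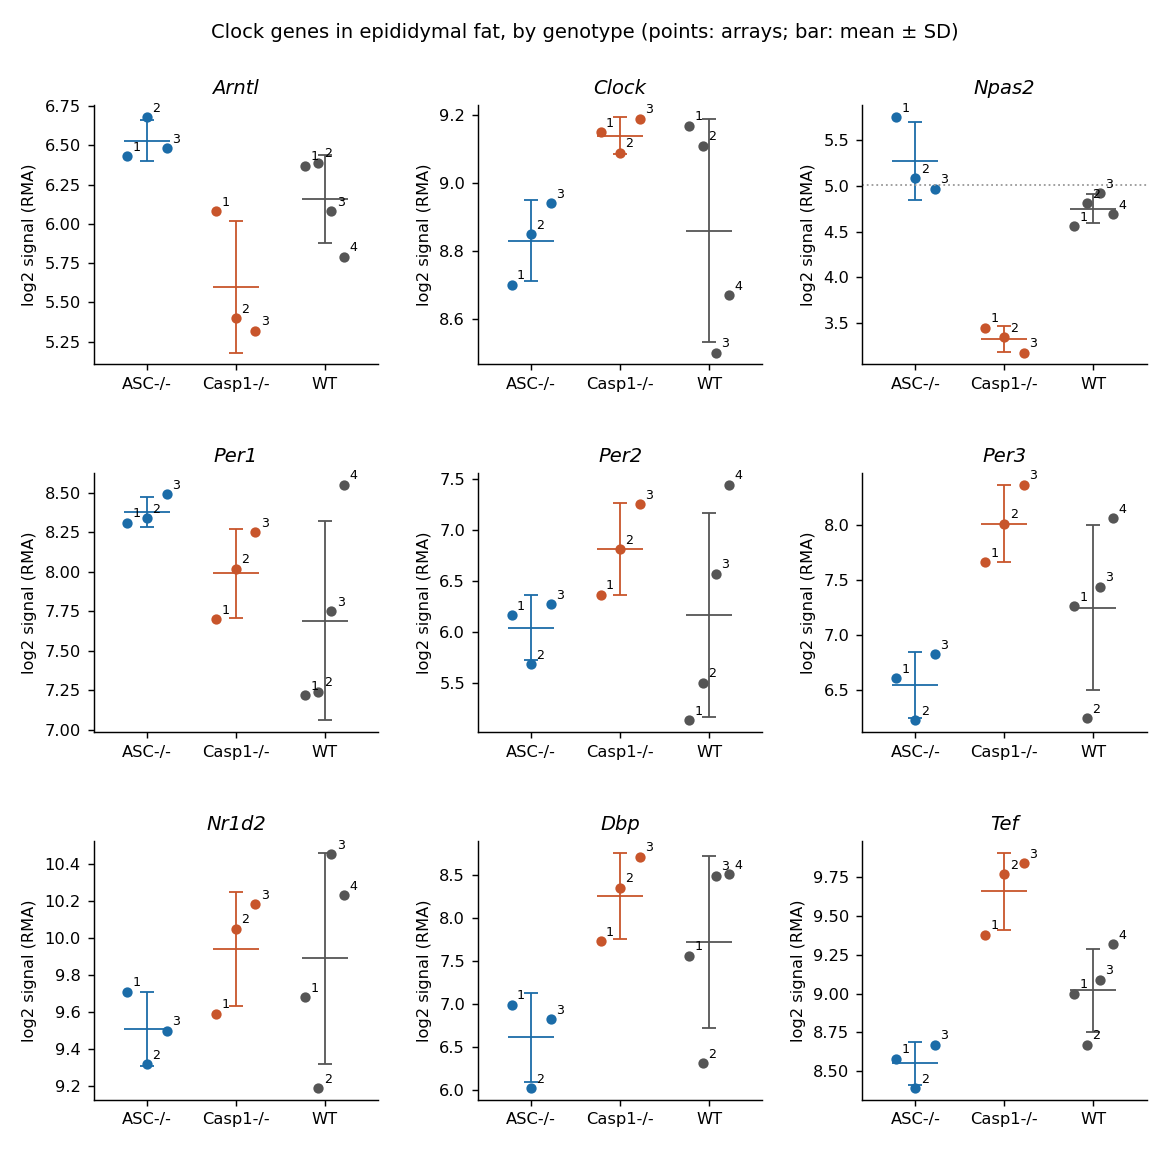
Log2 signals of the 9 clock genes on every array (y axis, RMA), by genotype (x axis); points are arrays with their replicate numbers, bars are means ± SD, the y axes differ between genes, and the dotted line in the Npas2 panel marks the highest background control at 5.01. Dbp runs from 6.02 to 6.99 on the ASC-/- arrays, from 7.73 to 8.71 on the Casp1-/- arrays and from 6.31 to 8.51 on the WT arrays.

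Arntl encodes the activator without which the loop stops. Its log2 signals were 6.43, 6.68 and 6.48 on the ASC-/- arrays, 6.08, 5.40 and 5.32 on the Casp1-/- arrays and 6.37, 6.39, 6.08 and 5.79 on the WT arrays. All ASC-/- arrays lay above all others, and the Casp1-/- arrays overlapped WT only through Casp1-/- replicate 1. Arntl was 1.90-fold higher in ASC-/- than in Casp1-/- fat (log2 difference 0.93 ± 0.22, SE; adjusted p = 0.0364). Against WT the log2 difference was 0.37 ± 0.20 in ASC-/- (adjusted p = 1) and -0.56 ± 0.20 in Casp1-/- (adjusted p = 0.117), neither past the threshold. Within the low spike-in set ASC-/- differed from WT by 0.44, and within the high set Casp1-/- differed from WT replicate 1 by -0.77. With the actin covariate the Casp1-/- minus WT difference was -0.71 and passed (adjusted p = 0.0408). The call between the null genotypes was lost without any 1 of the ASC-/- arrays or without Casp1-/- replicates 2 or 3 (adjusted p = 0.0786 to 0.126), and with the spike-in set as a block (1.21, adjusted p = 0.334). The other Arntl probe set had means below the highest background control and a log2 difference of 0.20.

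Npas2, whose protein can stand in for CLOCK, was dim. It read 5.75, 5.08 and 4.97 on the ASC-/- arrays, 3.45, 3.35 and 3.18 on the Casp1-/- arrays and 4.56, 4.81, 4.92 and 4.69 on the WT arrays. The genotypes formed separate ranges, with ASC-/- highest and Casp1-/- lowest, but all Casp1-/- and WT arrays and ASC-/- replicate 3 lay below the highest background control, so the size of the difference is uncertain. The log2 difference was -1.42 ± 0.18 (SE) for Casp1-/- minus WT (adjusted p = 0.00817) and 1.94 ± 0.19 (SE) for ASC-/- minus Casp1-/- (adjusted p = 0.00346). It was 0.52 ± 0.18 for ASC-/- minus WT (adjusted p = 1). Within the high spike-in set, Npas2 differed by -1.23 between Casp1-/- and WT replicate 1. With the set as a block this difference is the same by design, and it did not pass (adjusted p = 0.101). The call between the null genotypes was also lost with that block (1.68, adjusted p = 0.106). The other Npas2 probe set read 3.82 to 4.28 on the ASC-/- arrays, 3.75 to 4.24 on the Casp1-/- arrays and 4.01 to 4.36 on the WT arrays, and showed no such order (log2 difference -0.11 for Casp1-/- minus WT, adjusted p = 0.691).

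Clock, which encodes the partner of ARNTL, passed in no comparison. It averaged 8.83 ± 0.12 in ASC-/- (SD, n = 3), 9.14 ± 0.055 in Casp1-/- (SD, n = 3) and 8.86 ± 0.33 in WT (SD, n = 4). WT replicates 3 and 4 read 8.50 and 8.67 and WT replicates 1 and 2 read 9.17 and 9.11, so the WT arrays reached beyond the ASC-/- arrays on both sides. The log2 differences from WT were -0.03 with a 95% interval of ± 0.36 in ASC-/- and 0.28 ± 0.36 in Casp1-/- (adjusted p = 1 and 0.286). The ASC-/- arrays all lay below the Casp1-/- arrays, with a log2 difference of -0.31 (adjusted p = 0.279). With the actin covariate this difference was -0.02, and with the spike-in set as a block it was 0.10. A dim probe set of Clock, with a mean of 3.88 in Casp1-/- against 4.52 in WT, went the other way (log2 difference -0.64, adjusted p = 0.0129 over all probe sets). This probe set stayed below the highest background control on all arrays.

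The Per genes encode the repressors of the loop. Per3, whose transcript swings widely in peripheral tissues, read 6.61, 6.23 and 6.83 on the ASC-/- arrays, 7.66, 8.01 and 8.36 on the Casp1-/- arrays and 7.26, 6.25, 7.44 and 8.06 on the WT arrays. All ASC-/- arrays lay below all Casp1-/- arrays, while WT spanned nearly the whole range. The log2 difference between ASC-/- and Casp1-/- was -1.46 ± 0.39 (SE), which missed the threshold (adjusted p = 0.0548). The other Per3 probe sets with means above the highest background control passed it, at -1.07 (adjusted p = 0.0263) and -1.57 (adjusted p = 0.00772) over all probe sets. The main probe set passed without WT replicates 2, 3 or 4 (adjusted p = 0.024 to 0.0454), and did not pass without any 1 ASC-/- or Casp1-/- array (0.0894 to 0.155) or with the spike-in set as a block (0.632). Against WT, Per3 differed by -0.70 ± 0.37 in ASC-/- and by 0.76 ± 0.37 in Casp1-/- (adjusted p = 1 and 0.218), and within the spike-in sets by -0.70 and 0.75. The probe set with the smallest p in the ASC-/- minus WT comparison had arrays that did not overlap and a difference of -0.90, which did not pass either (adjusted p = 0.876).

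Per2, which also binds nuclear receptors, read 6.16, 5.68 and 6.27 on the ASC-/- arrays, 6.36, 6.81 and 7.25 on the Casp1-/- arrays and 5.13, 5.50, 6.57 and 7.44 on the WT arrays. The highest and the lowest of the 10 values were both from WT mice, so no genotype stood apart from WT. The log2 difference between ASC-/- and Casp1-/- was -0.77 ± 0.53 (SE, adjusted p = 0.387). Against WT it was -0.12 ± 0.49 in ASC-/- (adjusted p = 1) and 0.65 ± 0.49 in Casp1-/- (adjusted p = 0.432). Within the spike-in sets these were -0.46 and 1.68, the second against WT replicate 1, which had the lowest Per2 of all mice. The size depended on the fit. With the actin covariate it was -1.71 between ASC-/- and Casp1-/- (adjusted p = 0.0473) and 1.12 for Casp1-/- minus WT (adjusted p = 0.042), both past the threshold. With the spike-in set as a block it was -2.14 between ASC-/- and Casp1-/- (adjusted p = 0.425).

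Per1, the Per gene known for its quick response to stress hormones and to cyclic AMP, showed another order than Per3. It read 8.31, 8.34 and 8.49 on the ASC-/- arrays, 7.70, 8.02 and 8.25 on the Casp1-/- arrays and 7.22, 7.24, 7.75 and 8.55 on the WT arrays. The ASC-/- arrays were all above the Casp1-/- arrays and above WT replicates 1 to 3, while WT replicate 4 was the highest of all. The log2 difference was 0.69 ± 0.29 (SE) for ASC-/- minus WT (adjusted p = 1), 0.30 ± 0.29 for Casp1-/- minus WT (adjusted p = 0.556) and 0.39 ± 0.32 for ASC-/- minus Casp1-/- (adjusted p = 0.468). With the spike-in set as a block the last of these turned to -0.24, and within the spike-in sets the differences from WT were 0.53 in ASC-/- and 0.77 in Casp1-/-. With the actin covariate Per1 differed by -0.14 between ASC-/- and Casp1-/- and by 0.57 between Casp1-/- and WT, neither past the threshold.

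Nr1d2 encodes the receptor that, with NR1D1, represses Arntl. It averaged 9.51 ± 0.20 in ASC-/- (SD, n = 3), 9.94 ± 0.31 in Casp1-/- (SD, n = 3) and 9.89 ± 0.57 in WT (SD, n = 4). Its 3 highest values were 10.45 and 10.23 on WT replicates 3 and 4 and 10.18 on Casp1-/- replicate 3, and the lowest was 9.19 on WT replicate 2. No comparison passed the threshold (adjusted p = 0.399 to 1), and none did with the actin covariate, where the ASC-/- minus Casp1-/- difference was -0.89, against -0.43 without it.

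Dbp and Tef encode related leucine zipper proteins that bind D-boxes and carry the rhythm of the clock to its output genes. Dbp read 6.99, 6.02 and 6.82 on the ASC-/- arrays, 7.73, 8.35 and 8.71 on the Casp1-/- arrays and 7.56, 6.31, 8.49 and 8.51 on the WT arrays. The ASC-/- and Casp1-/- arrays did not overlap, with a 3.15-fold lower mean signal in ASC-/-, but the log2 difference of -1.66 ± 0.55 (SE) missed the threshold (adjusted p = 0.0978). It passed without WT replicate 2 (adjusted p = 0.04), which had the lowest Dbp of the WT mice, and did not pass without any 1 ASC-/- or Casp1-/- array (0.135 to 0.243) or with the spike-in set as a block (0.68). Against WT the log2 difference was -1.11 ± 0.52 in ASC-/- (adjusted p = 1) and 0.55 ± 0.52 in Casp1-/- (adjusted p = 0.536), and within the spike-in sets -1.16 and 0.71.

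Tef varied less among mice than Dbp. It read 8.58, 8.39 and 8.67 on the ASC-/- arrays, 9.38, 9.77 and 9.84 on the Casp1-/- arrays and 9.0, 8.67, 9.09 and 9.32 on the WT arrays. All Casp1-/- arrays lay above all WT arrays, and WT replicate 2 lay at the level of ASC-/- replicate 3. Tef was 1.56-fold higher in Casp1-/- than in WT (log2 difference 0.64 ± 0.16, SE; adjusted p = 0.0449) and 2.17-fold lower in ASC-/- than in Casp1-/- (-1.12 ± 0.18, adjusted p = 0.0123). The ASC-/- minus WT difference was -0.47 ± 0.16 (adjusted p = 1). The call against WT was narrow, since leaving out any array but WT replicate 1 raised its adjusted p to between 0.0551 and 0.144. With the spike-in set as a block the adjusted p was 0.354, at a difference of 0.66 that rests on WT replicate 1. The call between the null genotypes was lost without ASC-/- replicates 1 or 2 or without Casp1-/- replicate 2 (adjusted p = 0.0568 to 0.0601), and with the spike-in set as a block (-1.14, adjusted p = 0.246).

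**Figure D2:**
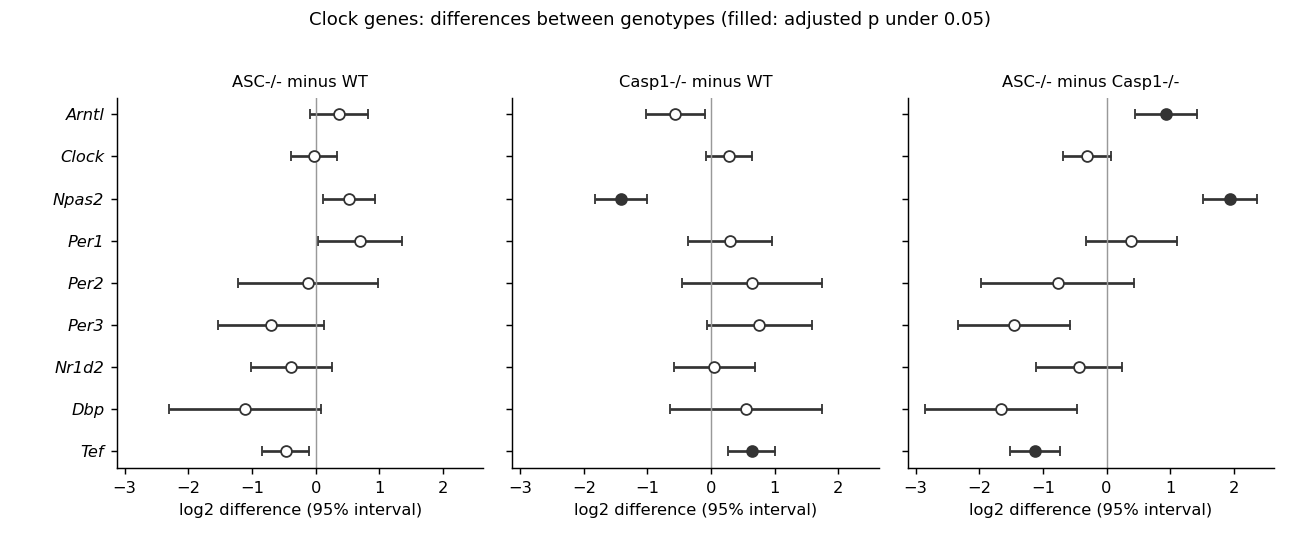
Log2 differences of the 9 clock genes (x axis) between genotypes, with 95% intervals from limma; filled points passed an adjusted p under 0.05. Arntl and Npas2 lie right of 0 and Tef left of it for ASC-/- minus Casp1-/-, while 0 of the 9 genes passed for ASC-/- minus WT.

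The phase opposed genes were then compared array by array. Taken against its mean over the 10 arrays, Arntl lay on the other side from Per2, Per3 and Tef on 10 of 10 arrays and from Dbp and Nr1d2 on 9 of 10. The exception for Dbp was WT replicate 1, where Dbp lay at 7.56 and its mean was 7.55. Per2, Per3 and Tef lay on the same side of their means on 10 of 10 arrays. The arrays next to the means decide such counts only narrowly, as for Per3 on WT replicate 1 (7.26, with a mean of 7.27) and for Arntl on Casp1-/- replicate 1 and WT replicate 3 (6.08 each, with a mean of 6.10). Clock and Per1 kept no such order with Arntl, with 5 of 10 arrays on opposite sides for each. These counts are a description over arrays of 3 genotypes.

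**Figure D3:**
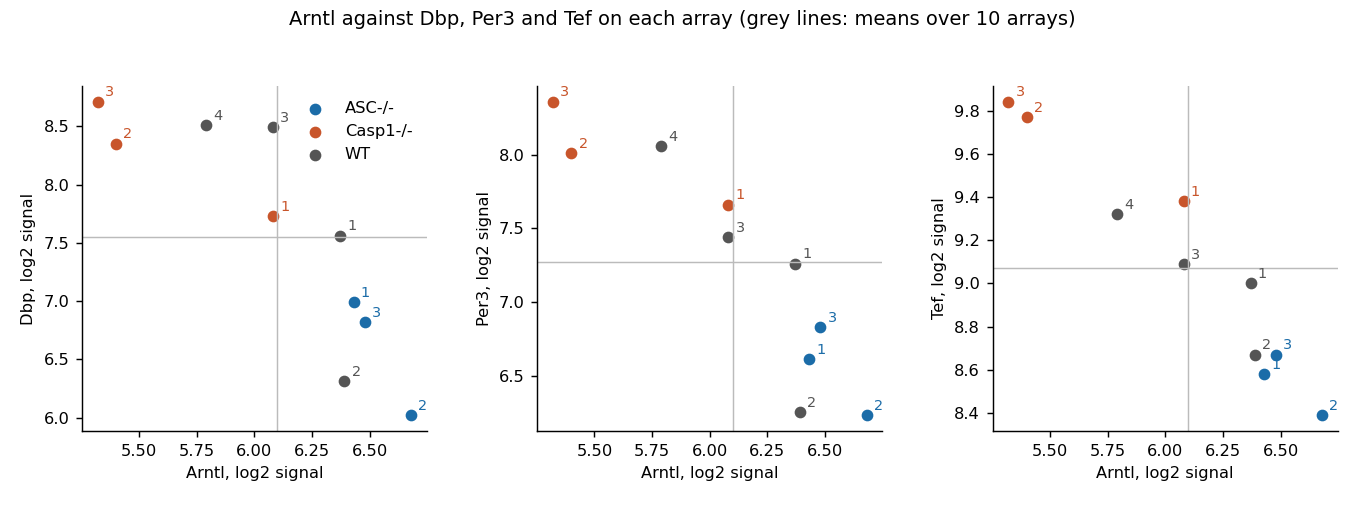
Log2 signal of Arntl (x axis) against that of Dbp, Per3 and Tef (y axes) on each of the 10 arrays, coloured by genotype and numbered by replicate; grey lines are means over all arrays. The ASC-/- arrays (Dbp 6.02 to 6.99) and WT replicate 2 (6.31) sit at high Arntl and low Dbp, and Casp1-/- replicates 2 and 3 (Dbp 8.35 and 8.71) at low Arntl and high Dbp.

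The difference between Arntl and the mean of Dbp and Per3 condenses this opposition into 1 value per array, which has no meaning as a level. It was -0.37, 0.55 and -0.34 on the ASC-/- arrays, -1.62, -2.78 and -3.22 on the Casp1-/- arrays and -1.04, 0.11, -1.88 and -2.49 on the WT arrays. ASC-/- and Casp1-/- did not overlap, while the WT mice ranged from the ASC-/- values to the Casp1-/- values. The group means were -0.05 ± 0.53 in ASC-/- (SD, n = 3), -2.54 ± 0.83 in Casp1-/- (SD, n = 3) and -1.33 ± 1.1 in WT (SD, n = 4). ASC-/- exceeded Casp1-/- by 2.48, and the range without single arrays was 2.14 to 2.94. Within the low spike-in set ASC-/- exceeded WT by 1.37, and within the high set Casp1-/- differed from WT replicate 1 by -1.5. High Arntl with low Dbp and Per3 is the state known from the late night and early morning in mouse tissues, and the opposite state that of the afternoon. The time at which each mouse was killed is not among the labels, and its part in these differences was not tested.

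**Figure D4:**
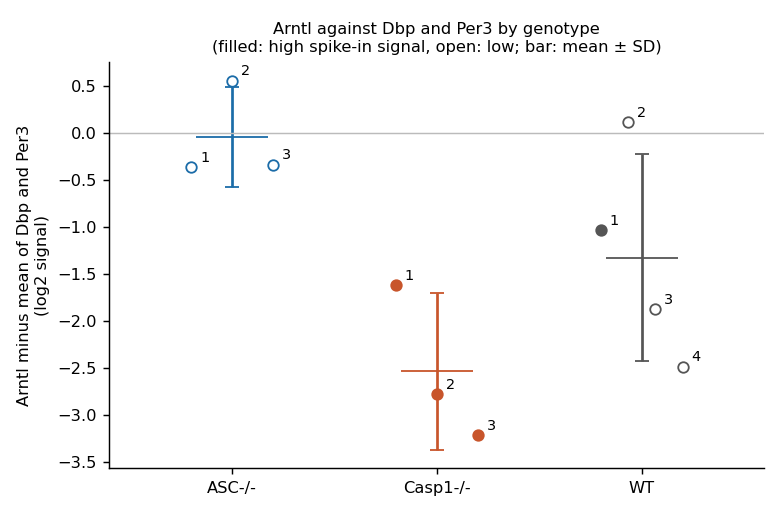
Arntl minus the mean of Dbp and Per3 on each array (y axis, log2 signal), by genotype; filled points are arrays with high and open points arrays with low spike-in signal, and bars are means ± SD. The ASC-/- arrays lie between -0.37 and 0.55, the Casp1-/- arrays between -3.22 and -1.62 and the WT arrays between -2.49 and 0.11.

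The spread among mice of the same genotype was large for several clock genes. Among the 4 WT mice the highest signal exceeded the lowest 4.94-fold for Per2, 4.57-fold for Dbp, 3.53-fold for Per3, 2.52-fold for Per1 and 2.40-fold for Nr1d2. The SD over the WT arrays was 1.05 for Per2 and 1.03 for Dbp, and only 1.34% and 1.39% of all genes had a larger SD there, where the median gene had 0.173. Per3 (3.23%), Per1 (5.46%) and Nr1d2 (6.95%) followed, while 20.8% to 55% of genes varied more than Clock, Arntl, Tef and Npas2. The 3 ASC-/- mice had ranges of 1.51-fold for Per2, 1.51-fold for Per3 and 1.13-fold for Per1 and of 1.96-fold for Dbp. In the 3 Casp1-/- mice these were 1.85-fold, 1.63-fold, 1.47-fold and 1.98-fold. A range over 3 mice is expected to be narrower than one over 4. WT replicates 1 and 2 lay apart from WT replicates 3 and 4 for each of the 9 genes but Npas2, where the WT arrays spanned only 4.56 to 4.92. For Tef the gap was narrow (9.0 against 9.09). Per1, Per2, Per3, Nr1d2, Dbp and Tef were lower on WT replicates 1 and 2, and Arntl and Clock were higher there. The actin 3' minus 5' signal divided the WT arrays likewise. It was 1.05 and 0.91 on WT replicates 1 and 2 and 0.53 and 0.46 on WT replicates 3 and 4. Its part in the spread among mice was not tested.

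The other genes of the clock that were measured numbered 16. In Casp1-/- against WT 2 rose and 0 fell, in ASC-/- against Casp1-/- 0 rose and 3 fell, and in ASC-/- against WT 0 changed, where 8.17%, 7.39% and 0.0351% of all genes were called. Their median log2 differences were 0.23, -0.24 and -0.06, where all genes had 0.041, -0.042 and 0.005. Hlf, the relative of Dbp and Tef, read 4.45, 4.93 and 4.64 on the ASC-/- arrays, 5.89, 6.28 and 6.16 on the Casp1-/- arrays and 5.69, 4.99, 5.22 and 5.82 on the WT arrays. The 3 genotypes did not overlap for it, with WT in the middle, although all ASC-/- arrays and WT replicate 2 lay below the highest background control. Its log2 difference was -1.43 ± 0.22 (SE) for ASC-/- minus Casp1-/- (adjusted p = 0.0123), -0.75 ± 0.21 for ASC-/- minus WT (adjusted p = 1) and 0.68 ± 0.21 for Casp1-/- minus WT (adjusted p = 0.0749).

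Cry2, which encodes a repressor that acts with the PER proteins, read 6.67, 6.92 and 7.07 on the ASC-/- arrays, 7.95, 7.88 and 7.79 on the Casp1-/- arrays and 7.23, 7.23, 6.41 and 7.12 on the WT arrays. It rose in Casp1-/- against WT (0.88 ± 0.20, SE; adjusted p = 0.03) and was lower in ASC-/- than in Casp1-/- (-0.99 ± 0.21, adjusted p = 0.0266). Bhlhe40, which encodes a repressor that competes at E-boxes, was called in the same comparisons, at 8.42 ± 0.33 in ASC-/- (SD, n = 3), 9.50 ± 0.20 in Casp1-/- (SD, n = 3) and 8.69 ± 0.34 in WT (SD, n = 4). Its log2 difference was 0.81 for Casp1-/- minus WT (adjusted p = 0.046) and -1.08 for ASC-/- minus Casp1-/- (adjusted p = 0.0257). The calls of Hlf, Cry2 and Bhlhe40 are given from the main fit only, without blocks, the actin covariate or single arrays left out. Cry1, the relative of Cry2, was 6.17 ± 0.061 in ASC-/-, 6.45 ± 0.084 in Casp1-/- and 6.21 ± 0.43 in WT (SD) and passed in no comparison. Nfil3, the repressor that binds the same D-boxes as DBP, was 6.30, 6.65 and 7.28 on the ASC-/- arrays, 6.85, 6.57 and 6.36 on the Casp1-/- arrays and 6.51, 6.44, 6.07 and 6.26 on the WT arrays, which overlapped. The receptor gene Rora (7.67, 7.88 and 7.89 on average in ASC-/-, Casp1-/- and WT), the kinase genes Csnk1d (10.31, 10.24 and 10.27) and Csnk1e (7.72, 7.94 and 7.80) and the ligase gene Fbxw11 (8.84, 8.82 and 8.92) had no call either. Timeless (6.89, 6.96 and 6.81) had none. The remaining 6 genes, Rorb, Arntl2, Ciart, Bhlhe41, Fbxl21 and Btrc, had means below the highest background control over the 10 arrays.

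**Figure D5:**
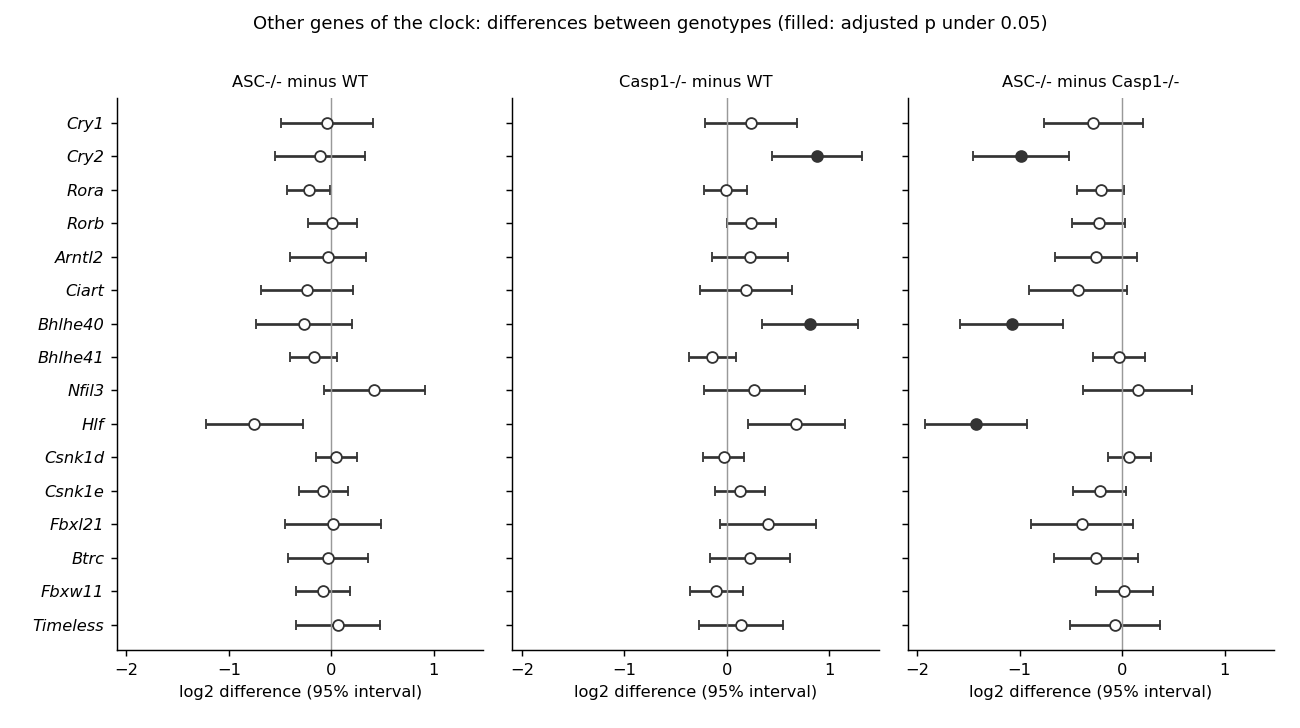
Log2 differences (x axis) of the 16 other clock genes measured, between genotypes, with 95% intervals from limma; filled points passed an adjusted p under 0.05. Cry2, Bhlhe40 and Hlf lie left of 0 for ASC-/- minus Casp1-/-.

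Genes driven by the clock in other tissues were taken as a list of rhythmic output genes. Of 13 rhythmic output genes measured, 0 changed in ASC-/- against WT, and 1 rose and 1 fell in Casp1-/- against WT and in ASC-/- against Casp1-/-, where 8.17% and 7.39% of all genes were called. Klf15, a regulator of amino acid and lipid use, was higher in Casp1-/- than in WT (8.68 against 7.21, adjusted p = 0.046), and WT replicate 3 was far below the other WT arrays at 6.03. Lonrf3, which encodes a ring finger protein, was lower in Casp1-/- than in WT (6.74 against 7.84, adjusted p = 0.0203) and higher in ASC-/- than in Casp1-/- (8.04 against 6.74, adjusted p = 0.0151). Tfrc, the transferrin receptor, was lower in ASC-/- than in Casp1-/- (8.48 against 9.22, adjusted p = 0.0314). Their median log2 differences of 0.02, 0.02 and -0.09, for ASC-/- minus WT, Casp1-/- minus WT and ASC-/- minus Casp1-/-, lay near those of all genes.

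Glucocorticoids rise before the active phase of the day and also induce Per1. Of 14 genes known to respond to them, 1 of which (Tsc22d3) is also among the output genes, 0 changed in ASC-/- against WT (median 0.30), 1 rose and 1 fell in Casp1-/- against WT (median 0.03), and 3 were higher and 1 lower in ASC-/- than in Casp1-/- (median 0.30). The shares of all genes called were 0.0351%, 8.17% and 7.39% in these comparisons. Dusp1, a phosphatase that ends kinase signals, read 11.86, 11.56 and 11.62 on the ASC-/- arrays, 9.78, 10.49 and 10.37 on the Casp1-/- arrays and 10.73, 10.25, 11.04 and 11.68 on the WT arrays. The ASC-/- arrays were above the Casp1-/- arrays throughout (log2 difference 1.46 ± 0.32, SE; adjusted p = 0.0299), and in WT replicate 4, the WT array with the highest Per1, Dusp1 reached the ASC-/- level. Pdk4, which restrains glucose oxidation in fasting, was 4.02-fold lower in Casp1-/- than in WT (adjusted p = 0.0125) and 4.54-fold higher in ASC-/- than in Casp1-/- (adjusted p = 0.0123). Cdkn1a, a cell cycle inhibitor, was 1.66-fold higher in ASC-/- than in Casp1-/- (adjusted p = 0.0232). Hsd11b1, which makes active glucocorticoid inside the cell, was 1.94-fold higher in Casp1-/- than in WT (adjusted p = 0.0369) and 1.96-fold lower in ASC-/- than in Casp1-/- (adjusted p = 0.0431). Of 9 heat shock genes, some of which follow body temperature over the day, 1 rose in Casp1-/- against WT, where 8.17% of all genes were called, and 0 changed in the other comparisons. It was the small heat shock protein gene Hspb1 (11.81 against 11.06, adjusted p = 0.0474). These lists were not recomputed within the spike-in sets.

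Genes with a pattern like those of Arntl and Dbp were sought among 8374 genes with a mean of at least 6, by the root mean square difference between log2 values centred on their means over the 10 arrays. For Dbp the 3 closest genes were Per3 (0.324), Tef (0.555) and Nr1d2 (0.578), followed by A530020G20Rik (0.584) and Gdf10 (0.59), where a flat line would give 0.925. For Arntl the closest with the sign turned was Tef (0.133, where a flat line would give 0.439), followed by Il15ra (0.156), Trib2 (0.211), Fam20c (0.214) and Tspan13 (0.218). The genes closest to Arntl itself were Dtx4 (0.209), St3gal6 (0.211), Nedd4l (0.219), Pawr (0.224) and Angptl4 (0.226). Opposite to Dbp were Pvalb (0.413), the acute-phase gene Saa3 (0.464), Ddah1 (0.508), Cyp2c23 (0.531) and the neutrophil gene S100a8 (0.555). Saa3, for example, read 10.78, 11.60 and 12.02 on the ASC-/- arrays, 10.74, 9.57 and 10.11 on the Casp1-/- arrays and 11.13, 11.51, 10.04 and 9.25 on the WT arrays. It was high on the WT arrays with low Dbp and low on those with high Dbp. The choice by pattern over these 10 arrays favours such genes, so this is no separate observation.

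Markers of cell types were set beside these differences. Of all genes, 8.17% were called in Casp1-/- against WT, 7.39% in ASC-/- against Casp1-/- and 0.0351% in ASC-/- against WT. Of the 14 macrophage markers 10 fell in Casp1-/- against WT and 10 were higher in ASC-/- than in Casp1-/-, with medians of -1.84 and 2.01, and 0 changed in ASC-/- against WT (median 0.18). Of 9 adipocyte markers, 1 rose in Casp1-/- against WT and 1 was lower in ASC-/- than in Casp1-/-, the regulator Pparg in both, and the mean of the list was 11.44 to 11.76 in ASC-/-, 11.98 to 12.06 in Casp1-/- and 11.06 to 11.88 in WT. Of 8 endothelial markers 1, Egfl7, was lower in ASC-/- than in Casp1-/-, and the list mean was 7.75 to 8.18 in ASC-/-, 8.03 to 8.76 in Casp1-/- and 7.61 to 8.09 in WT. No lymphocyte, mesothelial, progenitor or epididymis marker passed, with 9, 6, 6 and 5 measured, and 7 of the lymphocyte markers had means below the highest background control. The part of these markers in the clock gene values was not tested. Among the WT arrays the macrophage mean was 9.25 and 9.76 on WT replicates 1 and 2 and 10.86 and 10.41 on WT replicates 3 and 4. Arntl and Clock were lower on WT replicates 3 and 4 than on WT replicates 1 and 2. Per1, Per2, Per3, Nr1d2, Dbp and Tef were higher there, and Npas2 overlapped. Across genotypes, Casp1-/- had the lowest macrophage means (7.97 to 8.52) and the highest means of Clock (9.14), Per2 (6.81) and Dbp (8.26). Its means of Per3, Nr1d2 and Tef were also the highest, those of Arntl and Npas2 the lowest, and that of Per1 lay between. The actin 3' minus 5' signal divided the WT arrays in the same way as the macrophage mean. The part of either signal in these directions was not tested.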

How the data were processed

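RNA of epididymal fat from 3 ASC-/-, 3 Casp1-/- and 4 WT mice was hybridised to Affymetrix HT_MG-430 PM arrays. Per the submitters' processing notes, the authors used RMA (no version is named), and the deposited values are on the log2 scale. RMA corrects background and forces the arrays to a shared distribution, so that a change in total RNA cannot be seen and differences close to background shrink. No genome build is named for the probe sets in those notes. The number of arrays limits the precision.

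The table held 45141 probe sets. The annotation used gave 1 gene for 28898 of them, more than 1 for 551 and none for 15588, and 104 were controls, of which 23 gave the background. The brightest probe set stood for a gene (17097 genes, dim ones kept). Group means of all 10 arrays were fitted in limma 3.58.1 (R 4.3.3) with empirical Bayes (7 residual and 2.43 prior degrees of freedom), two-sided, with Benjamini-Hochberg adjustment over all genes. The p-values measure the spread between these mice, for which the labels give neither litter nor cage. The fit was tested on simulated data.

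The clock genes, the lists and the split of the spike-in signal at 7 were chosen with earlier results of these data known. Genes were named by rule: the members, the other clock genes, up to 4 called genes of each other list, the targets, and the 5 genes nearest to Arntl and to Dbp in either direction. The comparison of opposed genes was planned with Nr1d1 and was made with Dbp and Per3. Alternatives were another normalization, scaling, filter and probe set choice, array weights, blocks, an actin covariate and leaving out arrays. The labels do not say whether the replicate numbers pair the mice. Deviations of arrays with the same number correlated at -0.26 to 0.185 over genes, which cannot decide it.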

Additional observations from a re-analysis of the deposited data

Results flagged for a closer look

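Among 70 genes and list means tested in the 4 WT mice, 2 had 1 mouse far from the others. For Cry2, WT replicate 3 read 6.41, while WT replicates 1, 2 and 4 read 7.23, 7.23 and 7.12. For the mean of the other clock genes, WT replicate 2 was lowest at 6.14, against 6.26, 6.25 and 6.27 on WT replicates 1, 3 and 4. Chance alone would flag about 1 in 20 such groups.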

How the results depend on the processing

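The number of genes called over all genes depended on the fit. For Casp1-/- minus WT (1397) it was 2998 with array weights, 469 with only these groups, 9 with the replicate block, 120 with the spike-in set as a block, 226 within the high spike-in set, which holds a single WT array, and 64 to 3018 without single arrays. For ASC-/- minus Casp1-/- (1264) it was 3428, 3248, 19 and 63 in the first 4 of these fits, 231 with the actin signal as a covariate and 47 to 2615 without single arrays. For ASC-/- minus WT (6) it was 3 with only these groups, 3 with the replicate block and 3 to 6 without single arrays.

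Of the clock genes, 0 were called for ASC-/- minus WT in any fit. For Casp1-/- minus WT (2) the number was 1 without genes of a mean under 5 or with means over probe sets. It was also 1 with array weights or with only these groups. It was 0 with the replicate block or the spike-in block, 4 with the actin covariate (Arntl, Npas2, Per2 and Tef) and 1 to 2 without single arrays. For ASC-/- minus Casp1-/- (3) it was 5 over all probe sets, 5 with array weights, 6 with only these groups, 0 with the replicate block or the spike-in block and 1 to 5 without single arrays. Whether the replicate numbers pair the mice is not known, and 4 of 9 arrays lay closest to an array of their own number in another genotype. With the replicate block the SE of ASC-/- minus WT was 0.12 for Per1 and 0.25 for Per2. These SEs were 0.29 and 0.49 in the main fit, 0.18 and 0.37 without WT replicate 4, and 0.18 and 0.27 with the actin covariate. Without the dim genes Npas2 was not tested.

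The difference between Arntl and the mean of Dbp and Per3 kept its direction in all settings run. Between ASC-/- and Casp1-/- it was 1.57 with the probe sets of the second highest mean, and without single arrays it ranged from 0.88 to 1.75 for ASC-/- minus WT and from -1.67 to -0.73 for Casp1-/- minus WT.

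The 5 calls of single clock genes kept their direction in all alternatives run. They passed the threshold in 69 of these refits and missed it in 36. Directions turned only for genes that had not passed. For ASC-/- minus WT these were Clock (0.02 with means over probe sets, 0.06 with the second probe set or array weights, 0.07 with the spike-in block or within the low set, 0.11 with the actin covariate, -0.15 to 0.07 without single arrays), Npas2 (-0.07 with the second probe set) and Per2 (0.30 with the replicate block, -0.46 to 0.30 without single arrays). For Casp1-/- minus WT they were Clock (-0.02 with the spike-in block or within the high set), Per1 (-0.02 with array weights) and Nr1d2 (-0.04 with means over probe sets, -0.14 with the second probe set, -0.05 with array weights, -0.18 to 0.24 without single arrays). For ASC-/- minus Casp1-/- they were Clock (0.10 with the spike-in block) and Per1 (-0.24 with the spike-in block, -0.14 with the actin covariate). The causes were not tested. Signals near the background controls limit what can be said of Npas2 and Hlf in particular.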
